A study of Homo sapiens with 4 samples.

Results

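The genes described here encode the cytoplasmic factors that start and extend protein chains on the ribosome, together with their regulators and processed copies. They were chosen by name, as every listed gene whose symbol begins with EIF1 to EIF6, EEF1 or EEF2, leaving out the EIF2AK kinases, EEF1E1 and symbols that hold a hyphen. This gave 59 of the 14431 listed genes, of which 54 were genes and 5 were pseudogenes (EEF1A1P19, EEF1A1P5, EEF1A1P6, EEF1B2P3 and EIF4BP6). By factor, 9 belonged to EIF1, EIF5 and EIF6, 10 to EIF2, 14 to EIF3, 15 to EIF4 and 11 to EEF. RNA-Seq was performed on HGC27, a human gastric cancer cell line, in 2 control libraries (genotype WT in the labels) and 2 libraries of cells transfected with siRNA against AARS1 (siAARS1, labelled AARS1 knockdown). AARS1 is the alanyl-tRNA synthetase that charges tRNA with alanine. Cells of both groups were cultured without glucose and given 25 mM lactate. The labels put the time under lactate at 24 h, the text of the study gives another time, and so the time is uncertain. The comparison asked which transcripts changed with AARS1 knockdown in lactate, and no library without lactate was analysed here. How many siRNA sequences were used was not stated in the sources read, and nothing said that replicates came from separate cultures, so p-values measure only the spread between these libraries, which may be technical.

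Translation of most mRNAs begins when eIF4F, made of the cap-binding protein eIF4E, the scaffold eIF4G and the helicase eIF4A, brings the mRNA to a small ribosomal subunit. That subunit carries eIF3, eIF1, eIF1A, eIF5 and eIF2 with the initiator tRNA, it scans to the start codon, and eIF5B then joins the large subunit. In elongation, eEF1A delivers each charged tRNA, the eEF1B complex reloads eEF1A with GTP, and eEF2 moves the ribosome along by 1 codon. The guanine nucleotide exchange factor eIF2B and the kinase of eEF2 are points at which cells slow translation under stress, including when uncharged tRNA accumulates.

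The reads in listed genes numbered 30653210 to 33522573 per library, and 3 reads, the upper limit that a count of 0 allows, equalled 0.0880 to 0.0971 CPM (reads scaled to library size), for counting error only. AARS1 (listed as AARS; chr16:70252295-70289543 of GRCh38, minus strand) had 428 and 417 CPM in control against 292 and 298 CPM in siAARS1, or 69.7% of the control mean (log2 fold change -0.52 ± 0.036 SE, adjusted p = 2.52e-11). Of all tested genes 11.9% had a log2 fold change as low or lower, and that of AARS was -0.28 with transcript GC content and length corrected for and -0.32 with coding sequence and 3' UTR corrected for. Both siAARS1 values lay below both control values. Here and below, fold changes and adjusted p-values come from limma on log2(CPM + 1) over the 14199 genes that averaged 1 CPM or more in either group. Of 9 epithelial markers 4 were listed, with a summed level of 47.3 to 47.5 CPM in control and 22.4 to 23.8 CPM in siAARS1, while KRT18, KRT19 and EPCAM were not listed. The mesenchymal marker VIM had 5068 to 5131 CPM in control and 4600 to 4710 CPM in siAARS1, and the 4 fibroblast markers summed to 2805 to 2906 CPM and 2098 to 2174 CPM. Within that sum COL1A1 (2320 and 2399 CPM against 1644 and 1541 CPM) and COL1A2 were lower in siAARS1, whereas LUM (118 and 125 CPM against 211 and 225 CPM) and DCN were higher. Their part in the changes below was not tested, and in bulk RNA fewer cells of a type and less RNA per cell cannot be told apart. No endothelial marker of 3 was listed, and of 4 leukocyte markers only CD68 was, at up to 1.10 CPM.

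AARS1 knockdown was accompanied by changes in both directions among the translation factors, and the members called at 2-fold or more were all higher in the uncorrected fit. All 59 members passed the filter. At an adjusted p under 0.05, 24 members rose, 19 fell and 16 did not pass, so that 72.9% were called, against a background of 70.7% of all tested genes. The background was 32.6% higher and 38% lower, so the share of members called was near that of all genes. EIF5B, EIF3A, EIF4G3, EIF3E, EIF3J and EIF2A rose by at least 2-fold, which 10.6% of tested genes did, and 0 members fell by as much, as 1.63% of tested genes did. The 4 values of a gene did not overlap between groups for 28 members with higher and 25 members with lower siAARS1 values, against backgrounds of 38.5% and 46.6%. The median log2 fold change of the members was 0.02, beside -0.05 over all tested genes. Scaling each library to its median CPM moved the median of all genes to -0.27 and the member calls to 16 higher and 37 lower, against 23.3% and 57.6% of all genes. Under that scaling the small rises of EIF5A, EIF4A1, EIF4G1 and EIF4B turned into falls, whereas 16 of the 24 rises and all 19 falls kept their call, and EEF1A2 passed 2-fold with a log2 fold change of -1.05.

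**Figure D1:**
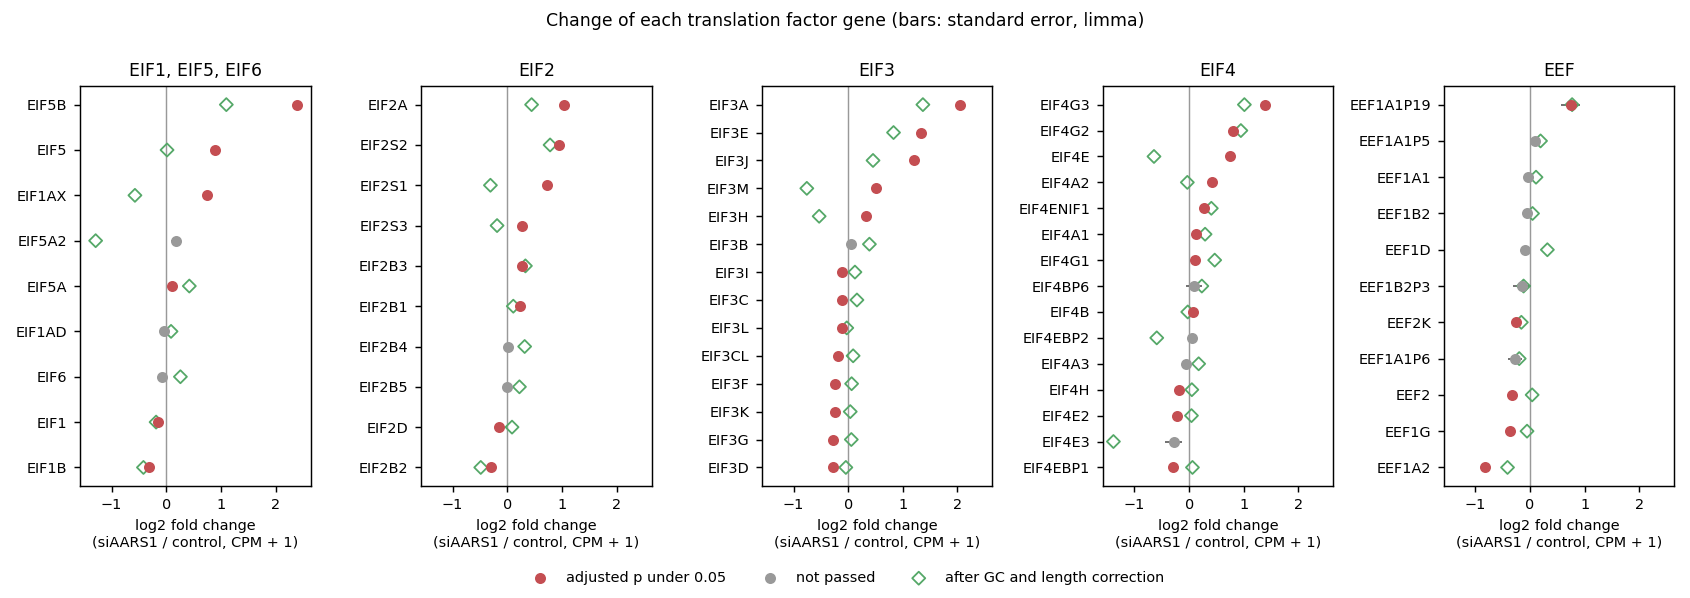
Log2 fold change (siAARS1 over control, on the log2(CPM + 1) scale) of the 59 members in 5 panels by factor, ordered by size. Filled points are limma estimates with their standard error, red where the adjusted p was under 0.05 and grey where it was not, and open diamonds are the same change after the trend with transcript GC content and length was taken out. EIF5B (2.39), EIF3A (2.04) and EIF4G3 (1.39) stand farthest to the right and EEF1A2 (-0.83) farthest to the left.

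Among the factors of start codon selection and subunit joining, EIF5B, EIF5, EIF1AX and EIF5A rose and EIF1 and EIF1B fell in the uncorrected fit. EIF5A2, EIF1AD and EIF6 did not pass. EIF5B (ENSG00000158417; chr2:99337353-99401326, plus strand), the GTPase that joins the ribosomal subunits, had 16.9 and 15.8 CPM in control against 87.3 and 92.1 CPM in siAARS1. Both siAARS1 values were far above both control values, and the mean was 5.49-fold higher (log2 fold change 2.39 ± 0.060 SE, adjusted p = 9.47e-19). Only 1.18% of all tested genes changed by as much or more in that direction. EIF5, the GTPase-activating protein of eIF2, had 195 and 193 CPM in control against 353 and 365 CPM in siAARS1 (1.85-fold, adjusted p = 3.88e-15). EIF1AX, which encodes the scanning factor eIF1A, had 60.4 and 60.5 CPM in control against 99.3 and 105 CPM in siAARS1 (1.69-fold, adjusted p = 6.34e-12). Its scanning partner EIF1 moved the other way in the uncorrected fit. EIF1 had 452 and 424 CPM in control against 393 and 394 CPM in siAARS1 (log2 fold change -0.15 ± 0.037 SE, adjusted p = 0.00104). Its paralog EIF1B showed the largest fall of the group, from 32.9 and 32.3 CPM to 25.6 and 26.1 CPM (log2 fold change -0.32 ± 0.065 SE, adjusted p = 1.41e-04). EIF5A, which helps ribosomes through stalling sequences, had 585 and 577 CPM in control against 620 and 623 CPM in siAARS1, a rise of 0.10 on the log2 scale (adjusted p = 0.0149). EIF6, which keeps the large subunit from joining too early, had 117 and 116 CPM in control against 113 and 106 CPM in siAARS1, with no overlap but an adjusted p of 0.0833. The fall of EIF1 did not pass without control replicate 1 (log2 fold change -0.11), and the rise of EIF5A did not pass without control replicate 2 (0.09). EIF5B, EIF5, EIF1AX and EIF1B kept their call with any 1 library left out. With GC content and length corrected for, as described below, EIF1AX (-0.57) and EIF1 (-0.19) were both below 0, and EIF5 stood at 0.01. With coding sequence and 3' UTR corrected for, EIF1AX stood at 0.01 and EIF1 at 0.02.

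All 3 subunits of eIF2, the GTPase that carries the initiator tRNA, rose in the uncorrected fit, as did 32.6% of all genes. Median scaling left 2 of the 3 called (EIF2S3 at 0.05 did not pass), and after a correction for transcript GC content and length, described below, EIF2S2 was called higher and EIF2S1 (-0.31) and EIF2S3 (-0.19) lower. EIF2S2, the beta subunit, had 107 and 102 CPM in control against 203 and 204 CPM in siAARS1 (1.95-fold, log2 fold change 0.95 ± 0.041 SE, adjusted p = 5.91e-15). EIF2S1, the alpha subunit whose phosphorylation slows initiation, had 97.5 and 94.6 CPM in control against 158 and 162 CPM in siAARS1 (1.67-fold, log2 fold change 0.73 ± 0.042 SE, adjusted p = 1.01e-12). EIF2S3, the gamma subunit that binds GTP and the tRNA, had 133 and 131 CPM in control against 158 and 162 CPM in siAARS1 (1.21-fold, log2 fold change 0.27 ± 0.040 SE, adjusted p = 3.39e-06). In each of the 3 genes both siAARS1 values lay above both control values, as they did in 38.5% of all tested genes. Without correction the beta subunit changed most and the gamma subunit least. EIF2A, a separate protein that can also bring initiator tRNA to the ribosome, rose from 47.3 and 48.8 CPM to 98.9 and 99.4 CPM (2.06-fold, log2 fold change 1.03 ± 0.048 SE, adjusted p = 2.69e-14).

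The 5 subunits of eIF2B, which reloads eIF2 with GTP, did not move together. EIF2B1 (alpha) and EIF2B3 (gamma) rose by 0.23 and 0.27 on the log2 scale, EIF2B2 (beta) fell, and EIF2B4 (delta) and EIF2B5 (epsilon) stood at 0.02 and 0.00 without passing. EIF2B2 showed the largest fall of the EIF2 genes, from 99.98 and 97.8 CPM to 80.6 and 79.2 CPM (log2 fold change -0.30 ± 0.045 SE, adjusted p = 3.50e-06). EIF2D, which takes part in reinitiation and recycling, had a log2 fold change of -0.15 (adjusted p = 0.0132) that did not pass without any 1 of control replicate 1, control replicate 2 and siAARS1 replicate 1 (-0.12 to -0.15). Across the 10 EIF2 genes 6 rose, 2 fell and 2 did not pass, with a median log2 fold change of 0.25, where 32.6% of all genes rose and 38% fell. Under median scaling 3 were higher and 4 lower, with a median of 0.03. Of all genes 23.3% were then higher and 57.6% lower, with a median of -0.27.

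eIF3, the largest initiation factor, holds the mRNA and the other factors on the small subunit, and its 13 subunits were split. EIF3A, EIF3E, EIF3J, EIF3M and EIF3H rose, EIF3B did not pass, and EIF3C (with its copy EIF3CL), EIF3D, EIF3F, EIF3G, EIF3I, EIF3K and EIF3L fell. EIF3A (ENSG00000107581; chr10:119033670-119080823, minus strand), the scaffold subunit, had 82.0 and 81.1 CPM in control against 334 and 343 CPM in siAARS1. That was a 4.15-fold higher mean (log2 fold change 2.04 ± 0.039 SE, adjusted p = 1.71e-20), with control values within 1 CPM of each other and no overlap between groups. EIF3E, a scaffold subunit as well, had 106 and 121 CPM in control against 278 and 301 CPM in siAARS1 (2.54-fold, log2 fold change 1.34 ± 0.051 SE, adjusted p = 9.63e-16). EIF3J, a loosely bound subunit, rose by 1.20 ± 0.049 SE on the log2 scale, EIF3M by 0.50 ± 0.038 SE and EIF3H by 0.33 ± 0.040 SE. Over the 14 EIF3 genes this made 5 rises and 8 falls, where 32.6% of all genes rose and 38% fell. Median scaling gave 5 and 9, where 23.3% of all genes were higher and 57.6% lower. With GC content and length corrected for there were 6 and 2, against 33.9% and 32.4% of all genes. The largest falls were small beside the largest rises. EIF3D, a subunit able to bind the cap of some mRNAs, had 337 and 346 CPM in control against 285 and 276 CPM in siAARS1 (log2 fold change -0.28 ± 0.037 SE, adjusted p = 5.65e-07). EIF3G, which contacts the mRNA, had 442 and 434 CPM in control against 371 and 348 CPM in siAARS1 (log2 fold change -0.28 ± 0.038 SE, adjusted p = 9.47e-07).

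EIF3C and EIF3CL are near-identical copies between which the counting could divide reads. Their separate values ranged from 557 to 669 CPM in control and from 508 to 569 CPM in siAARS1. EIF3C was not called without control replicate 1, siAARS1 replicate 1 or siAARS1 replicate 2, and EIF3CL was not called without control replicate 2 or siAARS1 replicate 2. Their sum was steadier, at 1206 and 1237 CPM in control against 1121 and 1074 CPM in siAARS1, or 89.9% of the control mean. EIF3I (log2 fold change -0.10, adjusted p = 0.0185) was not called without control replicate 1, control replicate 2 or siAARS1 replicate 1.

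In uncorrected CPM per kb, the range between the highest and lowest eIF3 subunit was narrower in siAARS1. Such a range rests on its end points, and EIF3A was the lowest in control. With GC content and length corrected for, EIF3A, EIF3E and EIF3J stayed called higher, whereas EIF3M and EIF3H turned into called falls. With EIF3CL left out, the levels of the 13 subunits ranged from 12.3 to 397 CPM per kb of transcript in control, a 32.3-fold range, and from 44.3 to 326 CPM per kb in siAARS1, a 7.37-fold range. EIF3A was the lowest of the 13 in control and number 11 in siAARS1. On this scale EIF3G stood highest in both groups. EIF3C was taken without the reads of its copy, at a mean of 608 CPM in control, where the sum of both was 1221 CPM. The range and the order with that sum were not computed. The plot of levels by library shows EIF3A and EIF3J, low in control, moving up by more than any subunit moved down.

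**Figure D2:**
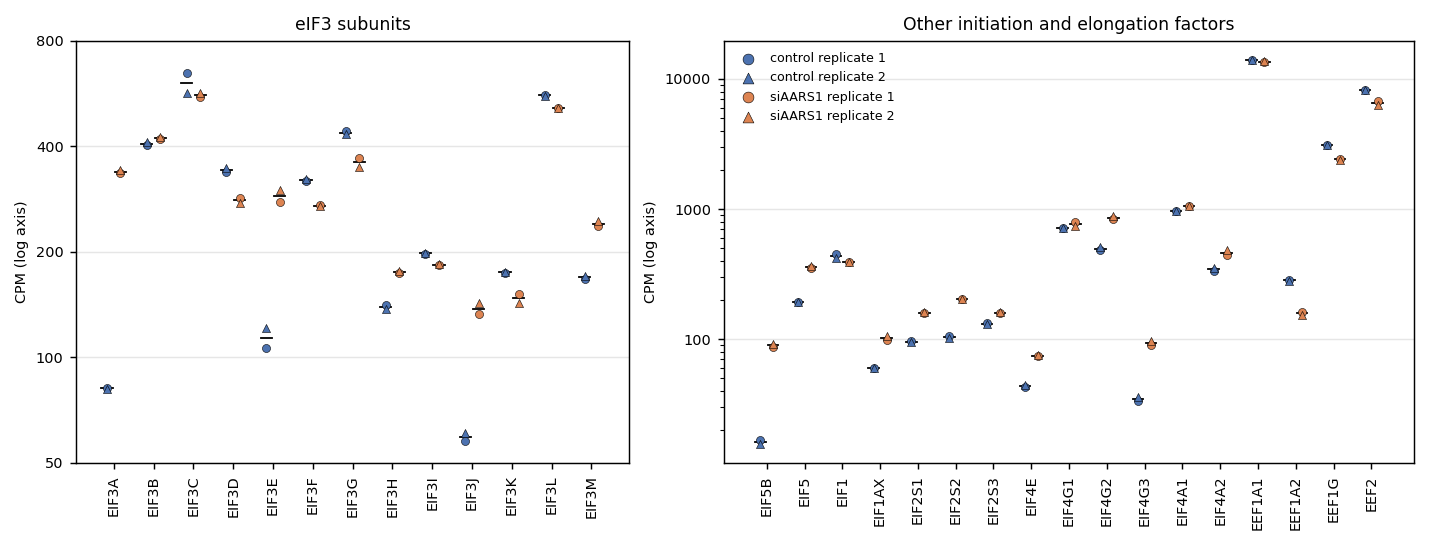
CPM (log axis) of the 13 eIF3 subunits (left) and 17 other initiation and elongation factors (right) in the 4 libraries. Blue symbols are control and orange symbols siAARS1, circles are replicate 1 and triangles replicate 2, and each black line is the mean of 2. EIF3A rose from 81.1 to 82.0 CPM in control to 334 to 343 CPM in siAARS1, and EEF1A1 lay between 13448 and 13994 CPM in all 4 libraries.

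Among the genes of eIF4F and its relatives, EIF4G3 and EIF4G2, paralogs of the main scaffold EIF4G1, changed most in the uncorrected fit. EIF4G3 (ENSG00000075151; chr1:20806292-21176888, minus strand), a paralog of the main scaffold, had 33.5 and 36.3 CPM in control against 90.6 and 96.2 CPM in siAARS1 (2.68-fold, log2 fold change 1.39 ± 0.055 SE, adjusted p = 1.46e-15). EIF4G2, which lacks the region that binds eIF4E and serves cap-independent initiation, had 481 and 508 CPM in control against 841 and 883 CPM in siAARS1 (1.74-fold, log2 fold change 0.80 ± 0.037 SE, adjusted p = 2.87e-14). EIF4G1, the main scaffold, had 720 and 714 CPM in control against 803 and 745 CPM in siAARS1 (log2 fold change 0.11 ± 0.037 SE, adjusted p = 0.0141), and did not pass without siAARS1 replicate 1 (0.05). EIF4E, the cap-binding protein, rose from 43.1 and 44.6 CPM to 74.2 and 75.2 CPM (1.70-fold, log2 fold change 0.76 ± 0.051 SE, adjusted p = 1.68e-11). In all 4 genes both siAARS1 values lay above both control values, as they did in 38.5% of all tested genes. With GC content and length corrected for, as described below, EIF4E turned into a called fall (-0.64).

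The helicase genes EIF4A1 and EIF4A2 both rose, EIF4A2 by more. EIF4A2 had 337 and 355 CPM in control against 445 and 483 CPM in siAARS1 (log2 fold change 0.42 ± 0.041 SE, adjusted p = 7.38e-09). EIF4A1 had 976 and 967 CPM in control against 1054 and 1058 CPM in siAARS1 (log2 fold change 0.12 ± 0.033 SE, adjusted p = 0.00318). EIF4B, a cofactor of the helicase, had 1144 and 1160 CPM in control against 1216 and 1215 CPM in siAARS1, and its log2 fold change of 0.08 (adjusted p = 0.0458) did not pass without any 1 of the 4 libraries. EIF4H, a related cofactor, fell by 0.18 on the log2 scale (adjusted p = 3.41e-04). EIF4A3, a helicase of the exon junction complex, did not pass.

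Neither of the inhibitors EIF4EBP1 and EIF4EBP2 was called higher in the uncorrected fit. Under both corrections described below, the change of EIF4EBP1 reversed direction. EIF4EBP2 stood at -0.59 with GC content and length corrected for and at 0.16 with coding sequence and 3' UTR corrected for. EIF4EBP1, which blocks eIF4E until it is phosphorylated, had 157 and 166 CPM in control against 133 and 131 CPM in siAARS1 (log2 fold change -0.29 ± 0.042 SE, adjusted p = 2.48e-06), the largest fall among EIF4 genes. EIF4EBP2 had 142 and 145 CPM in control against 148 and 151 CPM in siAARS1, which did not pass (adjusted p = 0.219). EIF4E2, a cap-binding protein that represses translation, fell by 0.23 on the log2 scale and EIF4ENIF1, a binding partner of eIF4E, rose by 0.26, while the low EIF4E3 (2.01 to 3.25 CPM) did not pass. Of the 14 EIF4 genes, 8 rose, 3 fell and 3 did not pass, with a median log2 fold change of 0.09, where 32.6% of all genes rose and 38% fell. Under median scaling, which shifts all genes by the same amount, 4 were higher and 9 lower, with a median of -0.13. Of all genes 23.3% were then higher and 57.6% lower, with a median of -0.27.

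None of the 7 elongation factor genes rose in the uncorrected fit, where 32.6% of all genes rose and 38% fell. EEF1A2, EEF1G, EEF2 and EEF2K fell, EEF1A1, EEF1B2 and EEF1D did not pass, and in all 7 both siAARS1 values lay below both control values, as they did in 46.6% of all genes. EEF1A2 (ENSG00000101210; chr20:63488012-63499322, minus strand), the eEF1A form known from muscle and neurons, had 286 and 280 CPM in control against 163 and 154 CPM in siAARS1. Its mean fell to 56.0% of control (log2 fold change -0.83 ± 0.040 SE, adjusted p = 4.50e-14), the largest fall among the members, and 3.33% of all tested genes had a log2 fold change as low or lower. EEF2 (ENSG00000167658; chr19:3976056-3985469, minus strand), the translocase, had 8283 and 8235 CPM in control against 6731 and 6335 CPM in siAARS1 (79.1% of control, log2 fold change -0.34 ± 0.040 SE, adjusted p = 1.43e-07). EEF1G (ENSG00000254772; chr11:62559601-62574086, minus strand), the structural subunit of eEF1B, had 3107 and 3083 CPM in control against 2424 and 2404 CPM in siAARS1 (78.0% of control, log2 fold change -0.36 ± 0.035 SE, adjusted p = 6.99e-09). The table also lists AP002990.1 in the same place and on the same strand as EEF1G, so reads of the pair may have been divided. EEF2K, the kinase that inactivates eEF2, had 103 and 108 CPM in control against 87.5 and 88.8 CPM in siAARS1 (log2 fold change -0.26 ± 0.045 SE, adjusted p = 3.28e-05). With GC content and length corrected for, as described below, EEF2 (0.04) and EEF1G (-0.06) did not pass. EEF1D (0.32) and EEF1A1 (0.11) were then called higher, and EEF1A2 and EEF2K stayed called lower.

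The most abundant member changed little. EEF1A1 (ENSG00000156508; chr6:73515750-73523797, minus strand), the ubiquitous form that delivers charged tRNA, had 13994 and 13942 CPM in control against 13448 and 13702 CPM in siAARS1 (log2 fold change -0.04 ± 0.040 SE, adjusted p = 0.362). The exchange factor subunit EEF1B2 had 786 and 741 CPM in control against 736 and 730 CPM in siAARS1 (adjusted p = 0.159). The other exchange subunit, EEF1D, had 286 and 267 CPM in control against 263 and 257 CPM in siAARS1 (adjusted p = 0.0501), and passed without control replicate 2 (log2 fold change -0.14). Per kb of transcript the order EEF1A1, EEF2, EEF1G was the same in both groups, with 6065, 2610 and 2032 CPM per kb in control and 5894, 2065 and 1585 CPM per kb in siAARS1. Of the 5 processed copies, EEF1A1P19 rose from 0.264 and 0.221 CPM to 1.07 and 1.08 CPM (log2 fold change 0.74 ± 0.18 SE, adjusted p = 7.83e-04) and entered the test only through its siAARS1 values. EEF1A1P5 had 66.8 to 75.4 CPM over the 4 libraries and did not pass, nor did EEF1A1P6, EEF1B2P3 and EIF4BP6. Reads of copies and parent genes cannot be fully separated.

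Many mRNAs of the translation machinery begin with a cytosine followed by a run of C and T, known as a 5′ terminal oligopyrimidine tract, through which their translation responds to mTOR. Transcript starts were read from RefSeq (GRCh38.p14) for the 44 of 59 members with an entry, and a start was counted when its first base was C and at least 4 more C or T followed without a gap, on the strand of the gene. Of the 44, 12 held such a run (27.3%), as did 12.4% of tested genes at 100 CPM or more in control, 7.49% of all tested genes with a start and 4.07% of all starts. The windows below hold 15 bases before and 15 bases from the start on, 5′ to 3′, with the run in capitals. The first 6 show how the run looks in elongation and initiation factors that fell, rose or did not pass, and the last 3 are members without it, EEF1G that fell and EIF4E and EIF5B that rose.
EEF1A1 (chr6:73521018-73521047, minus strand): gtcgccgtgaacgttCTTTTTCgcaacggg
EEF1B2 (chr2:206159880-206159909, plus strand): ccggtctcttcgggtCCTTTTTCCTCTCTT
EEF2 (chr19:3985449-3985478, minus strand): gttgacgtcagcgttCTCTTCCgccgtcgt
EIF3F (chr11:7987322-7987351, plus strand): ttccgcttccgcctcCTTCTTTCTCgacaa
EIF4B (chr12:53006441-53006470, plus strand): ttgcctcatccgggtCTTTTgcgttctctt
EIF2A (chr3:150546772-150546801, plus strand): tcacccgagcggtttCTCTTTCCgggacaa
EEF1G (chr11:62573877-62573906, minus strand): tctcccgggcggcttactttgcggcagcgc
EIF4E (chr4:98929119-98929148, minus strand): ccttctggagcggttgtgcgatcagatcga
EIF5B (chr2:99337374-99337403, plus strand): gcgcactgagaactcacaccatatgtgtcc
The other members with a run were EIF2D, EIF2S3, EIF3D, EIF3K, EIF3M and EIF4A2. The 12 with a run had a median log2 fold change of -0.05, from -0.34 (EEF2) to 1.03 (EIF2A), and the 32 without had a median of 0.06, from -0.36 (EEF1G) to 2.39 (EIF5B). Members with higher and lower values stood in both sets. A start in the database need not be the start used in these cells, and the match describes letters only.

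The change of the members moved with the base composition of their transcripts. Over the 54 members that were not pseudogenes, the log2 fold change had a Spearman rho of -0.63 with transcript GC content and 0.37 with transcript length, beside -0.65 and 0.29 over 13819 tested genes. Genes are not independent replicates, and all points come from the same 4 libraries. Of the 10 members under 40% GC, 8 rose and 0 fell, where 83.1% of all tested genes under 40% GC rose. Of the 20 members from 40% to 50% GC, 12 rose and 4 fell, where 47.6% of genes rose, and of the 24 at 50% or more, 3 rose and 15 fell, where 7.41% of genes rose. EIF5B had 38.6% GC, EIF3A 43.2% and EIF4G3 44.4%, while EEF1A2 had 66.4% and EEF2 59.9%.

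**Figure D3:**
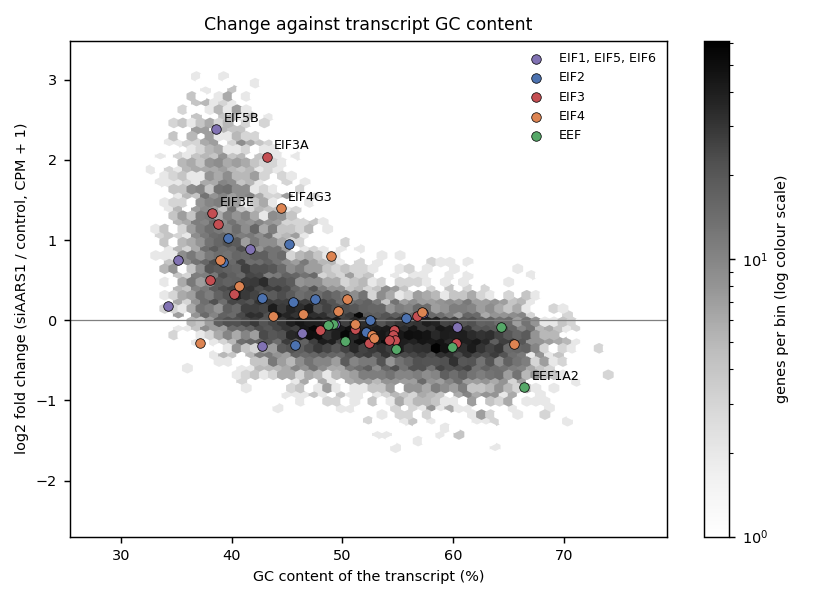
Log2 fold change (siAARS1 over control, CPM + 1) against the GC content of 1 transcript per gene in percent. Grey hexagons count all tested genes on a log colour scale and coloured points are the 54 members by factor. Members follow the cloud, high at under 40% GC and slightly below 0 at 50% or more.

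When the smooth trend of each library with GC content and length was taken out, which also removes any true change that follows them, 24 members were higher and 14 lower, against 33.9% and 32.4% of all genes. Of the 24 rises 14 kept their call, 6 turned into called falls and 4 did not pass. Of the 19 falls 5 kept their call, 2 turned into called rises and 12 did not pass. The 6 members with 2-fold rises all stayed called, and 3 of them stayed at 2-fold or more: EIF3A (log2 fold change 1.37), EIF5B (1.10) and EIF4G3 (1.01). EIF2S2 (0.78), EIF3E (0.83) and EIF4G2 (0.95) also kept most of their rise. EIF5 did not pass (0.01), and EIF4E (-0.64), EIF1AX (-0.57), EIF3M (-0.76), EIF3H (-0.53), EIF2S1 (-0.31) and EIF2S3 (-0.19) turned. Among elongation factors EEF1A2 (-0.41) and EEF2K (-0.16) stayed called, whereas EEF2 (0.04) and EEF1G (-0.06) did not pass, and EEF1D (0.32, adjusted p = 1.24e-07) and EEF1A1 (0.11, adjusted p = 0.00306) were called higher. Called falls of 2-fold or more under this correction were those of EIF4E3 (-1.39), at 2.01 to 3.25 CPM, and EIF5A2 (-1.29). When the properties of the coding sequence and 3' UTR were used instead, 29 members were higher and 11 lower, against 36.6% and 29.8% of all genes. Of the 22 rises and 19 falls with these properties, 16 rises and 6 falls kept their call, 2 rises and 5 falls turned, and EIF3A alone stayed at 2-fold (1.06). Under that correction EIF5B fell short of 2-fold with 0.35, EEF1A2 stood at -0.51 and EIF2A did not pass (0.08). Members called higher without correction and under both corrections were EIF5B, EIF5A, EIF2S2, EIF2B3, EIF3A, EIF3E, EIF3J, EIF4G3, EIF4G1, EIF4A1 and EIF4ENIF1, and those called lower in all of these fits were EEF1A2, EIF1B and EIF2B2. Under median scaling, however, EIF5A, EIF4G1 and EIF4A1 turned into falls, and EIF2B3 and EIF4ENIF1 did not pass. EEF1A2, EIF1B and EIF2B2 kept their call under it.

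Ratios within a library compare paralogs without regard to how the library was scaled. The EIF4G1/EIF4G3 ratio of CPM was 21.5 and 19.7 in control and 8.86 and 7.74 in siAARS1, a log2 change of -1.31. EIF4G1/EIF4G2 went from 1.497 and 1.41 to 0.955 and 0.843. EIF4E/EIF4E2 went from 0.349 and 0.379 to 0.707 and 0.745, and EEF1A1/EEF1A2 from 48.9 and 49.8 to 82.3 and 89.2. Smaller changes were seen for EIF4A1/EIF4A2 (2.81 to 2.28 in the mean), EIF4EBP1/EIF4EBP2 (1.12 to 0.882) and EIF1/EIF1B (13.4 to 15.2), again with no overlap between groups. The EIF5A/EIF5A2 values overlapped (52.2 to 57.6 in control, 49.8 to 52.8 in siAARS1). With 2 libraries a group the exact 2-sided permutation test cannot go below p = 0.333, which 7 of the 8 ratios reached, so none can pass 0.05. After the correction for GC content and length, the difference of the log2 fold changes was -0.54 for EIF4G1/EIF4G3, -0.48 for EIF4G1/EIF4G2 and 0.52 for EEF1A1/EEF1A2, while that of EIF4E/EIF4E2 (-0.69), EIF4A1/EIF4A2 (0.32) EIF4EBP1/EIF4EBP2 (0.65) and EIF5A/EIF5A2 (1.71) changed sign. With coding sequence and 3' UTR corrected for, the difference was 0.05 for EIF4G1/EIF4G3, 0.43 for EEF1A1/EEF1A2, 0.15 for EIF4E/EIF4E2, 0.31 for EIF4A1/EIF4A2 and -0.04 for EIF4EBP1/EIF4EBP2, so only EIF1/EIF1B and EEF1A1/EEF1A2 of these 8 ratios kept their direction under both corrections, and EIF4G1/EIF4G2 could not be computed under the second.

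**Figure D4:**
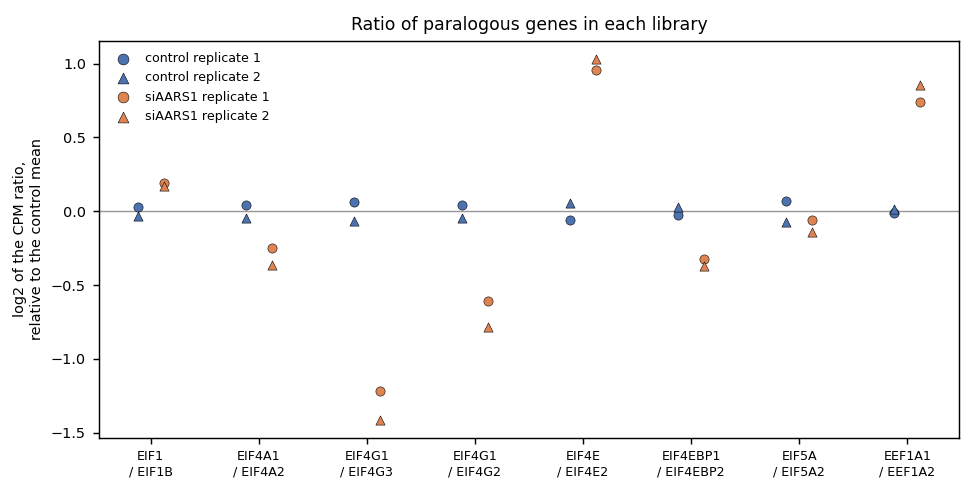
Log2 of the CPM ratio of 8 pairs of paralogs in each library, relative to the mean ratio in control (0 line). Blue symbols are control and orange symbols siAARS1, circles are replicate 1 and triangles replicate 2. EIF4E/EIF4E2 and EEF1A1/EEF1A2 lie above the line in siAARS1 and EIF4G1/EIF4G3 lies lowest.

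Other genes of translation, taken from 4 lists, were counted in the same way. Of 51 genes 50 were listed and tested, and 30 rose, 10 fell and 10 did not pass, with a median log2 fold change of 0.20, where 32.6% of all genes rose and 38% fell. Under median scaling 18 were higher and 20 lower, with a median of -0.02. All genes were then 23.3% higher and 57.6% lower, with a median of -0.27. Of the 19 partners in cap binding, poly(A) binding and scanning, 12 rose and 2 fell. DHX29, a helicase that helps scanning through structured leaders, rose from 9.74 and 9.52 CPM to 49.3 and 51.1 CPM (log2 fold change 2.27 ± 0.072 SE, adjusted p = 3.58e-17), and CTIF, a factor of the nuclear cap-binding complex, had the largest fall (-0.48). All 5 listed termination and recycling genes were called, 4 of them higher. ABCE1, which splits ribosomes after termination, rose from 36.7 and 40.3 CPM to 165 and 179 CPM (log2 fold change 2.13 ± 0.053 SE, adjusted p = 7.28e-19), and PELO, which rescues stalled ribosomes, had a log2 fold change of -0.19 that did not pass without control replicate 1, control replicate 2 or siAARS1 replicate 1. Of 14 kinases, phosphatase subunits and inhibitors that act on the factors, 9 rose and 4 fell. RPS6KB1, the S6 kinase, had the largest rise (1.28) and MKNK2, a kinase of eIF4E, the largest fall (-0.64). Of 12 enzymes that modify factors, with the selenocysteine factors, 5 rose and 3 fell. DPH3, needed for the diphthamide of eEF2, rose by 0.90 and DHPS, which makes the hypusine of eIF5A, fell by 0.43 on the log2 scale. By list, median scaling gave 7 higher and 8 lower among the partners, and 3 and 1 among termination and recycling genes. It gave 6 and 5 among kinases, phosphatase subunits and inhibitors, and 2 and 6 in the last list. After the correction for GC content and length, 25 of the 50 were called higher and 15 lower, against 33.9% and 32.4% of all genes. In the same order of lists, that made 11 and 5, 3 and 2, 5 and 5, and 6 and 3. DHX29 then stood at 1.40, ABCE1 at 1.11, RPS6KB1 at -0.09, DPH3 at 0.10 and DHPS at -0.10. With coding sequence and 3' UTR corrected for, DHX29 stood at 0.49, ABCE1 at 0.69, RPS6KB1 at 0.44, DPH3 at 0.85 and DHPS at -0.11.

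Of the 59 members, 29 overlap another listed gene over some part of their span, introns included, 4 of them on the same strand and 25 on the other strand. How strand was used in counting was not given in the sources used here. Reads from stretches that both genes of a pair share may therefore have been given to either. Whether the exons of these pairs overlap was not tested. EIF5B shares its locus with TXNDC9 and REV1, EIF3J with SPG11, EIF2S2 with RALY and EIF2A with SERP1, all on the other strand.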

How the data were processed

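RNA-Seq of 2 control and 2 siAARS1 libraries was grouped by sample title. The authors deposited 1 table of CPM (read counts scaled to library size, not corrected for length), for 14431 genes over 1 CPM in at least 1 library. The submitters' processing notes name RSEM 1.3.3 and hg38, without a role. The use of strand and the annotation were not given in the sources used here. All values were whole multiples of 1 read (100%, tolerance 0.00051 CPM), which gave the reads per library. Replicates differed by more than sampling noise (chi-square per gene 3.63 and 3.61) and correlated with r = 0.997 across genes, against 0.939 to 0.948 between groups.

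Groups were compared in R 4.3.3 with limma 3.58.1 (moderated, mean-variance trend) on log2(CPM + 1), for 14199 genes that averaged 1 CPM or more in either group, with Benjamini-Hochberg adjustment over all of them and a threshold of 0.05. Fold changes on this scale understate the change of low genes. On simulated counts, 100 genes were changed by 0.5 and 100 by 1 on the log2 scale, and 93% and 100% were called. These counts held no trend with GC content or length and few changed genes, whereas 70.7% of tested genes were called here. The simulation therefore cannot tell how the fit performs on data like these. The members and lists were chosen with earlier results of these data known, so no list gives independent support. Values per library are given for the eIF2 subunits, the 2 highest and 2 lowest eIF3 changes, the parts of eIF4F, the EIF1, EIF5 and EIF6 factors, the elongation factors, and the called member with the largest rise and fall in each group and list.

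Alternatives were a pseudocount of 0.1, no filter, median scaling, quantile normalization, the replicate number as a block, each library left out, a threshold of 0.01, and edgeR 4.0.16 (9806 genes called with TMM) and DESeq2 1.42.0 on the recovered reads. The trend of each library with GC content and length (mgcv 1.9.3; 97.2% of genes, GENCODE 29, 1 transcript per gene by APPRIS and support level, chosen after the longest had been tried) was also taken out, and, added after seeing the data, that with the coding sequence and 3' UTR (84.2%). Gene coordinates are those of GENCODE 29 on GRCh38.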

Additional observations from a re-analysis of the deposited data

How the results depend on the processing

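The scaling and the corrections for base composition moved the results most, and the cause was not tested. Medians of the factor groups are given here and below with pseudogenes left out of EIF4 and EEF. Under median scaling the median log2 fold change was -0.12 for EIF1, EIF5 and EIF6, 0.029 for EIF2, -0.33 for EIF3, -0.13 for EIF4 and -0.48 for EEF. In the same order, it was 0.014, 0.17, 0.077, 0.055 and 0.038 once the GC content and length trend was removed, and 0.18, 0.13, 0.090, 0.12 and -0.038 once that of coding sequence and 3' UTR was. With the longest transcript of each gene the first correction gave 0.21 for EIF2, 0.076 for EIF3, 0.054 for EIF4 and -0.038 for EEF. DESeq2 gave 0.15, 0.31, -0.060, 0.15 and -0.21 in that order. edgeR with TMM gave 0.29 for EIF2, -0.075 for EIF3 and 0.13 for EIF4, edgeR with library size only gave 0.078 for EIF4, and quantile normalization gave -0.068 for EIF1, EIF5 and EIF6, 0.094 for EIF2 and -0.098 for EEF. Leaving out each library in turn gave -0.063 to -0.11 for EIF3 and 0.072 to 0.098 for EIF4.

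Some counts of calls moved by over 1.5 times in these fits. Under median scaling 37 members and 8173 of all genes were lower, and 18 of the other translation genes were higher and 20 lower. Correction for coding sequence and 3' UTR called 11 members and 3589 genes lower, and DESeq2 called 5 of the other translation genes lower. The member counts moved by less with edgeR on the recovered reads, which called 27 higher and 16 lower with TMM. With library size only it called 23 higher and 22 lower.

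Single genes changed direction as follows, as log2 fold changes. Under median scaling these were EEF1A1P5 -0.13, EIF5A2 -0.041, EIF5A -0.12, EIF2B4 -0.20, EIF2B5 -0.22, EIF3B -0.16, EIF4A1 -0.10, EIF4G1 -0.11, EIF4BP6 -0.13, EIF4B -0.14 and EIF4EBP2 -0.16. Under quantile normalization they were EIF5A2 -0.068, EIF2B4 -0.11, EIF2B5 -0.13 and EIF4BP6 -0.0053, with DESeq2 EEF1A1 0.011, EIF1AD 0.0084 and EIF4A3 0.00026, and with edgeR and library size only EIF2B5 -0.014. With GC content and length corrected for, they were EEF1A1 0.11, EEF1B2 0.045, EEF1D 0.32, EEF2 0.038, EIF1AX -0.57, EIF5A2 -1.29, EIF1AD 0.087, EIF6 0.26, EIF2S1 -0.31, EIF2S3 -0.19, EIF2D 0.088, EIF3M -0.76, EIF3H -0.53, EIF3I 0.12, EIF3C 0.16, EIF3CL 0.091, EIF3F 0.063, EIF3K 0.038, EIF3G 0.057, EIF4E -0.64, EIF4A2 -0.033, EIF4B -0.025, EIF4EBP2 -0.59, EIF4A3 0.17, EIF4H 0.050, EIF4E2 0.043, EIF4EBP1 0.061 and RPS6KB1 -0.092. With the longest transcript they were EEF1B2 0.10, EEF1D 0.32, EEF2 0.032, EIF1AX -0.51, EIF5A2 -1.20, EIF1AD 0.12, EIF6 0.27, EIF2S1 -0.24, EIF2S3 -0.082, EIF2D 0.088, EIF3M -0.68, EIF3H -0.45, EIF3I 0.13, EIF3C 0.16, EIF3L 0.044, EIF3CL 0.091, EIF3K 0.029, EIF3G 0.061, EIF4E -0.63, EIF4EBP2 -0.53, EIF4A3 0.18, EIF4H 0.057 and EIF4EBP1 0.047. With coding sequence and 3' UTR corrected for, they were EEF1D 0.28, EEF2 0.054, EIF5A2 -0.48, EIF1AD 0.23, EIF6 0.28, EIF1 0.019, EIF2S3 -0.14, EIF3M -0.33, EIF3I 0.17, EIF3C 0.089, EIF3CL 0.023, EIF3F 0.040, EIF3G 0.10, EIF4A3 0.10, EIF4H 0.12, EIF4E2 0.0070 and EIF4EBP1 0.12. Leaving out each library gave EEF1B2P3 -0.36 to 0.055, EIF1AD -0.13 to 0.046, EIF4BP6 -0.18 to 0.35, EIF2B4 -0.016 to 0.062 and EIF2B5 -0.035 to 0.038. Called rises and falls kept their direction with a pseudocount of 0.1, without the filter, at a threshold of 0.01 and with any library left out, though some lost the call.

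Samples that share a replicate number share only a number here, since the labels do not say that it marks a culture or a day. Deviations from the group means correlated with r = 0.118 over the 2 pairs. With the replicate number as a block, 10389 genes were called against 10032 without it, 23 members were higher and 21 lower, EIF4B lost its call, and EEF1D and EEF1A1P6 passed. The block together with the GC content and length correction gave the same log2 fold changes as that correction alone, so the 28 genes that changed direction were the same, and its medians were 0.014, 0.17, 0.077, 0.055 and 0.038.

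With 2 libraries a group, calls of about 0.1 on the log2 scale rest on very few values, and 7 calls among the genes named were lost at a threshold of 0.01. CPM counts transcripts as shares of a library, and protein levels and translation were not measured.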
